A study of Mus musculus with 3 samples.

Results

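The 7 genes described here, H2-Aa, H2-Ab1, H2-Eb1, Cd74, Ciita, H2-DMa and H2-DMb1, make up the core of MHC class II antigen presentation. They were taken by symbol from the 29994 gene rows of each count matrix, and all 7 were found. RNA was counted in droplets (10x Genomics) from ventricles of C57B6 mice that had been kept frozen, in 3 libraries of 3 pooled hearts each. The Sham and TAC libraries came from mice given Vehicle, and the TAC+ART library from mice with TAC given Artesunate. TAC is transverse aortic constriction, which places a pressure load on the heart, and artesunate is an antimalarial of the artemisinin family. The series asked whether drugs could counter cardiac fibrosis. The sources used here do not say whether droplets took up cells or nuclei, and barcodes are called cells below. They give no dose, time after surgery or age.

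MHC class II molecules hold peptides from material that a cell has taken up and show them to CD4+ T cells. The alpha chain and the beta chain are encoded by H2-Aa and H2-Ab1 for the A molecule, and H2-Eb1 encodes the beta chain of the E molecule. Mice of the C57BL/6 background make no E alpha chain because of a deletion at H2-Ea, so their H2-Eb1 transcript has no partner chain. Cd74, the invariant chain, escorts new class II molecules and blocks their groove. H2-DMa and H2-DMb1 encode the DM molecule, which removes the last piece of the invariant chain and helps load peptides. Ciita is the coactivator without which class II genes stay nearly silent. Dendritic cells, B cells and some macrophages are the usual bearers of class II, and in the heart the recruited, Ccr2-bearing macrophages are known for it.

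Of the 7 genes, 5 lie in the MHC region of chromosome 17. On the GRCm38 build (GENCODE M21), H2-Aa lies at chr17:34282744-34287823 on the minus strand, H2-Ab1 at chr17:34257689-34269419, H2-Eb1 at chr17:34305867-34316674, H2-DMa at chr17:34119541-34139101 and H2-DMb1 at chr17:34153072-34160230, all 4 on the plus strand. Ciita and Cd74 lie on other chromosomes. Class II promoters carry an X box, bound by the RFX complex, and a Y box, bound by NF-Y, and CIITA acts through the proteins on these boxes. The 160 bases before the start of 2 genes are shown from RefSeq (GRCm38.p6), read 5′ to 3′ along the gene's strand, because they show these boxes. Capitals mark matches to an X box core, spelled AACNGATG, and to a Y box core, spelled TGATTGG.
H2-Eb1, chr17:34305707-34305866, plus strand: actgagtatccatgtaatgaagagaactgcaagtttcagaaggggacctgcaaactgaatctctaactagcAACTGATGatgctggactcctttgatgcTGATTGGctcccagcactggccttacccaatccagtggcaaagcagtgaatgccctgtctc
H2-Aa, chr17:34287824-34287983, minus strand: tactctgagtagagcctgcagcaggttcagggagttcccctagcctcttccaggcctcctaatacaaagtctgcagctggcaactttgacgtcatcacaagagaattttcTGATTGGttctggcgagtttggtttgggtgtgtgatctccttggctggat
In H2-Eb1 the X box core began 89 bases and the Y box core 61 bases before the start, with 20 bases between them. The H2-DMb1 window held both cores too, AACTGATG at 92 bases and TGATTGG at 63 bases before the RefSeq start, with 21 bases between them. In H2-Aa the Y box core lay 50 bases before the start and the X box letters were not matched. Neither core was matched in the 2 windows listed for H2-DMa, whose last 160 bases lie at chr17:34122672-34122831 and chr17:34125358-34125517. Both windows lie inside the span given above for H2-DMa. Other stretches of this gene were not searched, so the lack of a match holds for these 2 windows only. Both strands were searched over 250 bases before each start. Of 32851 such windows, 1.98% held the X box core, 7.23% the Y box core and 0.146% both, which is 48 windows. The letters were spelled with these windows in view, and a match is a description of the letters only. Windows were at hand for 4 of the 7 genes and not for H2-Ab1, Cd74 or Ciita.

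The libraries held 3752 to 7413 barcodes and 17710689 to 37658150 UMIs (unique molecular identifiers, one per captured RNA molecule), with medians of 4310 to 4811 UMIs per barcode. Pairs of libraries shared 20, 20 and 27 barcode sequences. Cells were assigned to classes by a score over fixed marker genes, none of which is a class II gene. A class is thus a range of a score, and 21.4% of cells in TAC, 19.1% in TAC+ART and 30.2% in Sham stayed without a class. There was 1 library per group, so no test of the groups is possible. Levels are UMIs of a gene per 1000000 UMIs of the class in that library (CPM), and 95% intervals, given in parentheses, cover counting error only. Differences between libraries can be those of the hearts or of the preparation. A lower CPM of a class cannot be split into fewer transcribing cells and less RNA per cell, except where values per cell are given.

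Macrophage-like cells were the largest single source of class II RNA, summed over the 7 genes, in every library. They numbered 281 in Sham (7.73% of cells), 1231 with TAC (17.7%) and 913 with TAC+ART (14.1%). They held 36.2% (34.5 to 38.0) of the 2916 class II UMIs in Sham, 51.5% (50.7 to 52.3) of 14442 in TAC and 47.4% (46.6 to 48.2) of 14503 in TAC+ART. Endothelial-like cells, which outnumbered them, held 11.4%, 7.19% and 9.29%, and cells with no class held 23.7%, 17.4% and 16.9%. The same held for each gene but H2-DMa, of which fibroblast-like cells held 16.5% in Sham and macrophage-like cells 13.9%, with 19.9% and 28.5% in TAC, and 25.6% and 24.4% in TAC+ART.

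**Figure D1:**
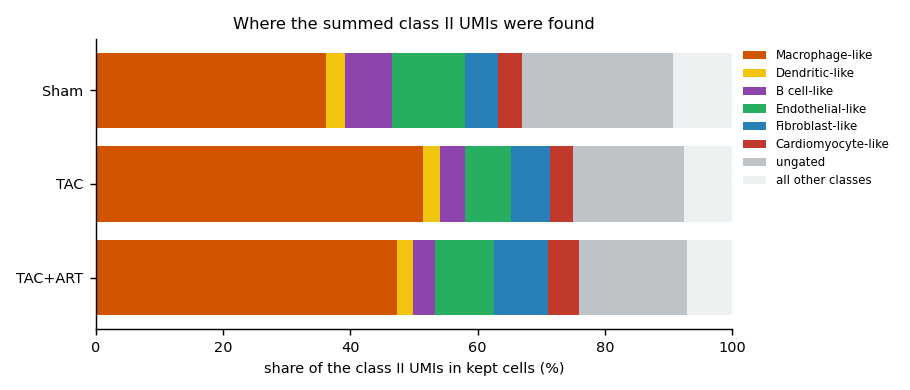
Share of all class II UMIs (x axis, percent, the 7 genes summed over kept cells) found in each marker-gated class, with 1 bar per library. The macrophage-like segment takes 36.2% of the bar in Sham, 51.5% with TAC and 47.4% with TAC+ART.

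Per UMI, the highest levels were in 2 small classes. Dendritic-like cells, professional presenters of antigen, had 5840 CPM (5261 to 6466) for the 7 genes together in TAC, from 12 cells, and 6332 CPM (5690 to 7027) in TAC+ART, from 11 cells. Sham had 5 such cells. B cell-like cells had 2355 CPM in Sham (22 cells), 3779 with TAC (49 cells) and 3181 with TAC+ART (44 cells). In TAC, 13 monocyte-like cells had 1482 CPM (1226 to 1776), between B cell-like and macrophage-like cells. Sham had 2 monocyte-like cells and TAC+ART 6. Macrophage-like cells came next among classes of more than 20 cells in each library, at 795 CPM in Sham (748 to 844), 1190 with TAC (1163 to 1218) and 1579 with TAC+ART (1542 to 1617). The order B cell-like above macrophage-like was the same in the 3 libraries, and the intervals of the 2 classes did not overlap.

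Other classes were lower and lay close together. In TAC, lymphatic endothelial-like, endothelial-like and pericyte-like cells had 166, 161 and 161 CPM, endocardial-like cells 141 and fibroblast-like cells 127. Of these neighbours in the order, the first 4 had overlapping intervals. In Sham the same classes lay between 51.9 CPM in lymphatic endothelial-like and 105 in endothelial-like cells. In TAC+ART they lay between 170 in fibroblast-like and 239 in endothelial-like cells.

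Cardiomyocytes are not known to present antigen on class II, so their level served as the reference for free RNA in the droplets. All cardiomyocyte-like cells together had 50.1 CPM in Sham, 277 with TAC and 251 with TAC+ART. That class was mixed: in TAC 231 of its 457 cells lay in clusters led by genes of other cells, and 20 of them, in cluster 8, had 2108 CPM. The cardiomyocyte-like cells in the 2 cardiomyocyte-like clusters, 9 and 14, had 38.5 CPM in Sham (30.5 to 48.0), 149 with TAC (128 to 172) and 151 with TAC+ART (135 to 168). The reference was thus higher in both TAC libraries than in Sham. Endothelial-like, endocardial-like, lymphatic endothelial-like, pericyte-like and fibroblast-like cells of TAC, at 127 to 166 CPM, had intervals that overlapped that of the reference, and the part of free RNA in their levels was not tested. In Sham, endothelial-like, fibroblast-like, endocardial-like and pericyte-like cells, at 76.5 to 105 CPM, had intervals above that of the reference, and lymphatic endothelial-like cells did not. In TAC+ART, endothelial-like, endocardial-like and pericyte-like cells, at 197 to 239 CPM, had intervals above that of the reference, and lymphatic endothelial-like and fibroblast-like cells did not. Median depths of the reference were 7704, 5196.5 and 6034.5 UMIs in Sham, TAC and TAC+ART. They were 3668.5, 4167 and 3848 in endothelial-like, 4033.5, 4786 and 4290 in pericyte-like, and 4788, 5518 and 5490 in endocardial-like cells. Fibroblast-like cells had 5005, 6248 and 5490.5. CPM does not allow for free RNA weighing more in shallower droplets, and the part of depth in these differences was not tested.

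**Figure D2:**
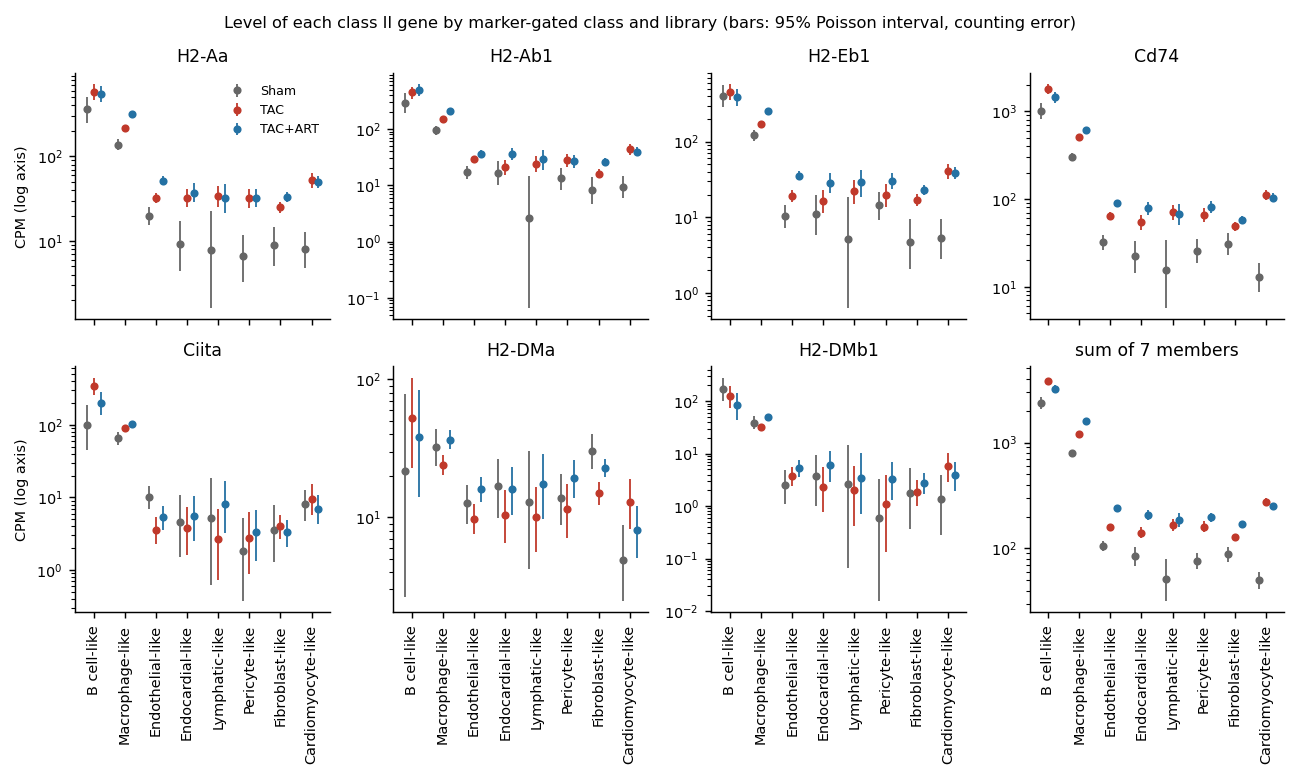
Level of each of the 7 genes and of their sum (y axis, CPM, log scale) in 8 marker-gated classes (x axis) in the Sham, TAC and TAC+ART libraries, with 95% Poisson intervals for counting error. B cell-like and macrophage-like cells lie above the other classes for the sum, at 795 CPM or more, while H2-DMa in Sham is about as high in fibroblast-like cells (30.4 CPM) as in macrophage-like cells (32.4 CPM).

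The macrophage-like cells of the 3 libraries did not come from the same clusters when all cells were clustered without the class II genes. Cluster 5 held 226 of the 281 macrophage-like cells in Sham and 772 of the 913 in TAC+ART, but 18 of the 1231 in TAC. In cluster 6 were 974 of the TAC cells, 2 of the Sham cells and 18 of the TAC+ART cells. Cluster 8 held 16 in Sham, 236 with TAC and 113 with TAC+ART (5.69%, 19.2% and 12.4% of macrophage-like cells). By its markers cluster 8 was closest to macrophages: their mean log2 CPM lay 3.53 above the median cluster, against 2.17 for the best class other than monocytes and dendritic cells, which were lower than macrophages too, and 10 macrophage markers were past 2-fold. Its 10 leading genes, however, include Wdfy4, which is on the dendritic marker list, and no macrophage marker. Of its 740 cells, 365 were macrophage-like, 265 had no class, 43 were cardiomyocyte-like, 26 dendritic-like and 21 monocyte-like. The only other dendritic-like cells were 1 in cluster 1 and 1 in cluster 17. No monocyte-like cell lay in another cluster. For this reason the comparisons below are given for all macrophage-like cells and again for those outside cluster 8. Near the cut of the score lay 22 cells inside and 24 outside in Sham, 41 and 37 with TAC, and 24 and 29 with TAC+ART. Median depths of macrophage-like cells were 4382, 4820 and 4452 UMIs. Markers of other cells were present too. The median over cells of summed cardiomyocyte markers was 3.92, 5.13 and 5.33 per 1000 UMIs, and of fibroblast markers 0.928, 2.25 and 2.71, against 11.5, 10.2 and 12.4 for macrophage markers. Of the types that bear class II, summed B cell markers had medians of 0.961, 0.465 and 0.803 in macrophage-like cells. They were found in 92.5%, 79.6% and 88.1% of these cells. Fibroblast-like cells had medians of 2.60, 2.19 and 2.24, and pericyte-like cells 5.35, 5.13 and 5.12. Bank1, on the B cell list, is also among the 10 leading genes of cluster 5. The B cell list is thus not particular to B cells in these libraries. Dendritic markers had medians of 0.268, 0.282 and 0.268 and were found in 75.4%, 74.1% and 71.6%. The gate asked for no margin between macrophage, monocyte and dendritic scores, so macrophage-like cells can include cells with dendritic scores nearly as high. The part of RNA of B cells and dendritic cells in the class II levels was not tested.

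The chains of the class II molecules were higher in TAC than in Sham macrophage-like cells and higher again in TAC+ART. H2-Aa, the A alpha chain, had 138 CPM in Sham, 216 with TAC and 316 with TAC+ART, from 183, 1352 and 1377 UMIs. The TAC over Sham log2 ratio was 0.65 (0.43 to 0.88), and the TAC+ART over TAC ratio 0.55 (0.44 to 0.66). H2-Ab1, its beta chain, had 94.9, 153 and 206 CPM, with ratios of 0.68 (0.42 to 0.97) and 0.43 (0.30 to 0.57). H2-Eb1, the unpaired E beta chain, had 121, 171 and 253 CPM, with ratios of 0.50 (0.26 to 0.75) and 0.56 (0.44 to 0.68). For each of these 3 genes the library order was Sham, TAC, TAC+ART, and no intervals of level overlapped between libraries.

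The invariant chain and the coactivator had the same order of libraries in CPM. Cd74 had 304 CPM in Sham (275 to 335), 503 with TAC (485 to 521) and 614 with TAC+ART (591 to 638). Its log2 ratios were 0.72 (0.58 to 0.88) and 0.29 (0.21 to 0.36). Ciita had 65.5 CPM in Sham (52.5 to 80.8), 90.9 with TAC (83.6 to 98.7) and 103 with TAC+ART (94.1 to 113). Its ratios were 0.47 (0.15 to 0.82) and 0.19 (0.00 to 0.37), so the TAC and TAC+ART levels of Ciita were hardly apart at this depth.

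The DM genes did not share the TAC over Sham direction of the other members. H2-DMa had 32.4 CPM in Sham (23.4 to 43.6), 24.0 with TAC (20.3 to 28.2) and 36.5 with TAC+ART (31.1 to 42.7). H2-DMb1 had 39.1, 32.2 and 49.6 CPM. The TAC over Sham ratios were -0.44 (-0.93 to 0.09) and -0.29 (-0.73 to 0.19), which counting error alone could give, and the TAC+ART over TAC ratios were 0.61 (0.27 to 0.94) and 0.63 (0.34 to 0.91). Both genes carry limits of annotation. H2-DMa overlaps Brd2, which lies on the opposite strand, and the sources used here do not say if counting used strand. Brd2 had 72.3, 74.4 and 59.5 CPM in these cells. H2-DMb1 has a near-identical neighbour, H2-DMb2, and reads that match both could have been dropped or split. H2-Eb1 and Ciita also overlap genes on the opposite strand, Gm20513 and Dexi.

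Across the members, 5 of 7 were higher in TAC than in Sham and 3 passed 1.5-fold, where 12.1% of the 8926 genes with at least 100 UMIs did so. None of the 7 was lower by 1.5-fold, where 9.49% of genes were. The median ratio of the 7 was 0.50 (range -0.44 to 0.72) beside 0.00 for all genes. For TAC+ART over TAC, 7 of 7 were higher and 2 passed 1.5-fold, where 5.52% of 9948 genes did, and 0 were lower by that much, where 5.61% were. The median was 0.55 (0.19 to 0.63) beside -0.07 for all genes. The 2 comparisons share the TAC library, so a high or low TAC value moves both in opposite directions.

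Without cluster 8 the sizes of the 2 comparisons changed places. The summed level outside cluster 8 was 672 CPM in Sham (265 cells), 767 with TAC (995 cells) and 1303 with TAC+ART (800 cells). The log2 ratio of the sum was 0.58 (0.49 to 0.68) for TAC over Sham in all macrophage-like cells and 0.19 (0.08 to 0.30) outside cluster 8. With TAC+ART over TAC it was 0.41 (0.36 to 0.46) in all and 0.77 (0.71 to 0.82) outside cluster 8. Of single genes outside cluster 8, Cd74 had a TAC over Sham ratio of 0.36 (0.19 to 0.53), while H2-Aa (0.24), H2-Ab1 (0.24), H2-Eb1 (-0.01) and Ciita (0.05) had intervals that held 0. All 7 had TAC+ART over TAC ratios above 0 there, from 0.51 for Ciita to 1.04 for H2-Eb1 (0.88 to 1.20). Subtracting the level in all cardiomyocyte-like cells of the same library left 0.30 for TAC over Sham and 0.54 for TAC+ART over TAC, and subtracting that of clusters 9 and 14 left 0.46 for each.

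**Figure D3:**
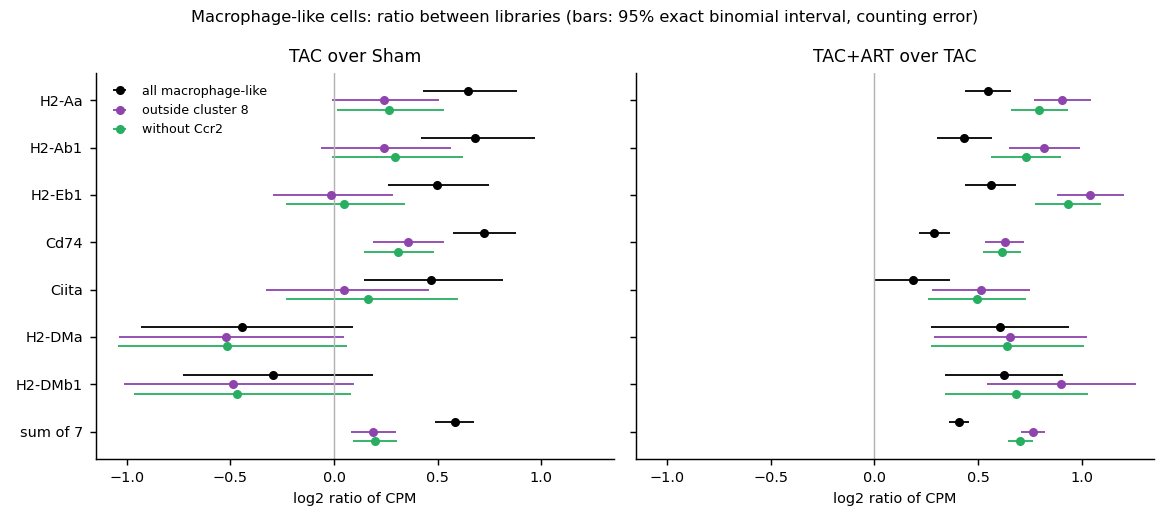
Log2 ratio of CPM between libraries (x axis) for each gene and the sum (y axis) in all macrophage-like cells, in those outside cluster 8 and in those without a UMI of Ccr2, with 95% exact binomial intervals for counting error. For the sum, TAC over Sham is 0.58 in all cells and 0.19 outside cluster 8, and TAC+ART over TAC is 0.41 and 0.77.

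Inside cluster 8, class II levels were several times those of the other macrophage-like cells in each library. The sum was 3696 CPM in Sham (3200 to 4247, 16 cells), 3576 with TAC (3457 to 3699, 236 cells) and 4067 with TAC+ART (3880 to 4261, 113 cells). The intervals of Sham and TAC overlapped, and the TAC+ART over TAC log2 ratio was 0.19 (0.10 to 0.27). In cluster 5 the sum was 680 CPM in Sham and 1274 in TAC+ART, and in cluster 6 it was 777 in TAC. From Sham to TAC the share of cells in cluster 8 was higher and the level outside it was higher by 0.19. From TAC to TAC+ART that share was lower, and the level was higher both inside (0.19) and outside (0.77).

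The macrophage-like cells were also split by single marker genes. Ccr2 is the chemokine receptor of monocytes and monocyte-derived macrophages. Cells with a UMI of Ccr2 were 6.41% of macrophage-like cells in Sham, 11.3% with TAC and 10.6% with TAC+ART. Their summed class II level was 2576 CPM in Sham (18 cells), 4425 with TAC (139 cells) and 4120 with TAC+ART (97 cells). Unlike cluster 8, these cells had counting intervals that did not overlap between Sham and TAC (2235 to 2955 against 4270 to 4583). The Sham level rests on 18 cells and 204 UMIs, and the intervals do not cover differences between cells, so the contrast was not tested. Cells with a UMI of Ccr2 had a TAC+ART over TAC ratio of -0.10 (-0.19 to -0.02). Cells without a UMI of Ccr2 had 682, 782 and 1274 CPM, with ratios of 0.20 (0.09 to 0.30) and 0.70 (0.64 to 0.76). Cells with a UMI of F13a1 or Cd163, which mark resident cardiac macrophages, were 98.9%, 94.9% and 97.2% of the class and had 766, 1066 and 1521 CPM, with ratios of 0.48 (0.38 to 0.57) and 0.51 (0.46 to 0.56). F13a1 and Cd163 are both markers of the macrophage gate, and cells with either were nearly the whole class. Their ratios were thus bound to lie near those of all macrophage-like cells. The few cells without either had 4183 CPM in TAC (63 cells) and 4369 in TAC+ART (26 cells).

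**Figure D4:**
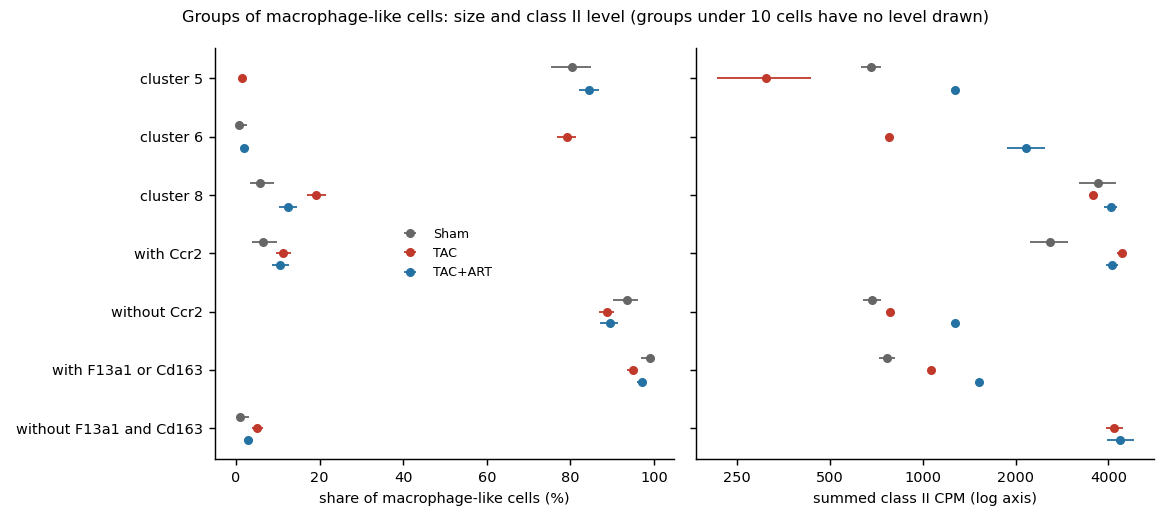
Left, share of each library's macrophage-like cells (x axis, percent, 95% Clopper-Pearson intervals) in 3 clusters and in groups by single marker genes. Right, their summed class II level (x axis, CPM, log scale, 95% Poisson intervals); cluster 8, at 3576 to 4067 CPM, lies above cluster 5 in each library and above cluster 6 in TAC and TAC+ART, while the 2 cluster 6 cells of Sham had 6416 CPM (4584 to 8737).

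Per cell, class II RNA was unevenly spread over macrophage-like cells. Each cell was thinned to 1000 UMIs to remove differences of depth. No class II UMI was then found in 61.9% of macrophage-like cells in Sham (56.0 to 67.6), 58.7% with TAC (55.9 to 61.5) and 42.4% with TAC+ART (39.2 to 45.7). At least 1 was found in 38.1%, 41.3% and 57.6%, and, without thinning, in 67.6%, 72.0% and 84.1%. In the cardiomyocyte-like cells of clusters 9 and 14, with median depths of 7704, 5196.5 and 6034.5 UMIs, the thinned shares with at least 1 were 4.83% in Sham, 15.5% with TAC and 16.9% with TAC+ART.

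Cells with 3 or more class II UMIs per 1000 were 14.9% of macrophage-like cells in Sham (11.0 to 19.7), 18.1% with TAC (16.0 to 20.4) and 25.1% with TAC+ART (22.3 to 28.0). In all cardiomyocyte-like cells such counts were found in 0.294%, 2.41% and 3.07%. The Sham and TAC intervals overlapped and the TAC+ART share lay above both. Cells with 10 or more were 0.712%, 1.87% and 1.31%. The 10% of cells with the most class II UMIs held 49.4% of these UMIs in Sham, 56.7% with TAC and 42.1% with TAC+ART, so the UMIs were spread over more cells in TAC+ART than in TAC.

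**Figure D5:**
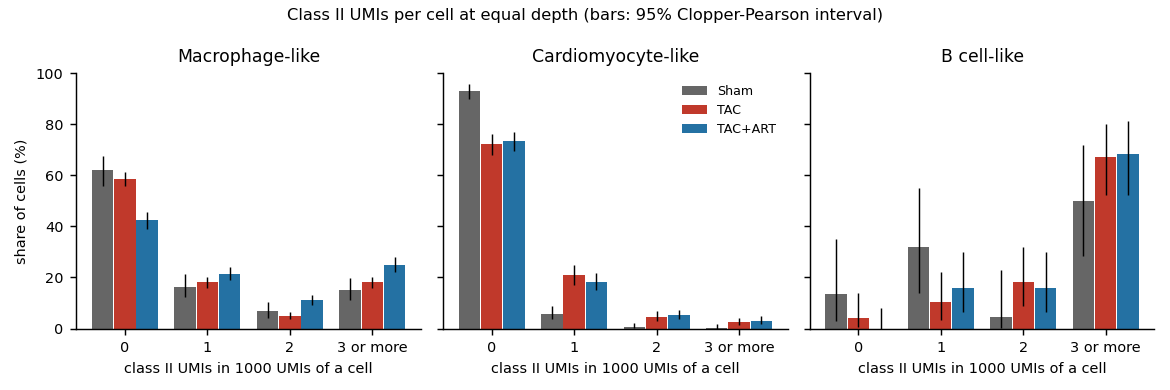
Share of cells (y axis, percent, 95% Clopper-Pearson intervals) with 0, 1, 2 or at least 3 class II UMIs after thinning to 1000 UMIs (x axis), for macrophage-like, cardiomyocyte-like and B cell-like cells of the 3 libraries. Macrophage-like cells with none are 61.9% in Sham, 58.7% with TAC and 42.4% with TAC+ART, and those with 3 or more are 14.9%, 18.1% and 25.1%.

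The members were found together in the same cells. Among thinned macrophage-like cells of TAC, H2-Aa was detected in 40.2% of 348 cells with a Cd74 UMI (35.0 to 45.6) and in 5.44% of 883 cells without (4.03 to 7.14). H2-Ab1 was detected in 31.9% against 6.12%, H2-Eb1 in 32.2% against 5.89% and Ciita in 17.2% against 2.83%. The Sham and TAC+ART libraries had the same order for these 4 genes, for example 24.6% against 9.72% for H2-Aa in Sham and 37.5% against 14.9% in TAC+ART. H2-DMb1 was detected in 6.32% against 1.70% in TAC. H2-DMa was the exception in Sham, with 3.08% against 4.17%, and its intervals overlapped in each of the 3 libraries.

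The 7 genes did not keep one proportion across classes. H2-Aa made up 18.2% of class II UMIs in macrophage-like cells of TAC (17.3 to 19.1), 19.8% in endothelial-like, 19.6% in fibroblast-like and 19.0% in cardiomyocyte-like cells. Ciita made up 7.64% in macrophage-like cells of TAC (7.04 to 8.27) but 2.22% in endothelial-like (1.41 to 3.31), 3.15% in fibroblast-like and 3.48% in cardiomyocyte-like cells. TAC+ART had the same order, with 6.55% in macrophage-like (5.97 to 7.16) and 2.23% in endothelial-like cells (1.51 to 3.16). Sham did not: Ciita made up 8.24% in macrophage-like (6.65 to 10.1), 9.61% in endothelial-like (6.67 to 13.3) and 16.1% in cardiomyocyte-like cells (9.81 to 24.2, 18 UMIs). In dendritic-like cells it was 14.6% (11.1 to 18.6) in TAC and 18.1% in TAC+ART.

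H2-DMa was a larger part of class II RNA in fibroblast-like than in macrophage-like cells. It made up 34.2% of class II UMIs in fibroblast-like cells of Sham (26.7 to 42.4), 11.8% in TAC and 13.5% in TAC+ART, against 4.07%, 2.02% and 2.31% in macrophage-like cells. As a level, H2-DMa in fibroblast-like cells was 30.4 CPM in Sham (22.6 to 39.9), 15.0 with TAC (12.3 to 18.2) and 22.95 with TAC+ART (19.6 to 26.7). In the cardiomyocyte-like cells of clusters 9 and 14 it was 4.87, 9.50 and 5.94 CPM, so the fibroblast-like level was above the reference in Sham and TAC+ART. Its TAC over Sham ratio in fibroblast-like cells was -1.02 (-1.51 to -0.50), and its TAC+ART over TAC ratio 0.61 (0.25 to 0.98). Brd2, on the other strand, had 72.6, 72.6 and 63.4 CPM in the same cells. Only 321 Sham cells (8.83%) passed the fibroblast gate, while a fibroblast-like cluster, number 0, held 1112 Sham cells, so the gated Sham cells are a small part of the type.

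Outside macrophage-like cells, most members with enough UMIs were higher in TAC than in Sham, as the sum was in the reference. In TAC+ART 5 of 5 members were higher than in TAC in both endothelial-like and fibroblast-like cells. The TAC+ART over TAC ratio of the sum was 0.57 (0.34 to 0.80) in endocardial-like and 0.29 (0.07 to 0.51) in pericyte-like cells. In lymphatic endothelial-like cells it was 0.17 (-0.13 to 0.46). The reference sum of clusters 9 and 14 was 151 CPM in TAC+ART and 149 in TAC. The part of free RNA in these ratios was not tested. H2-DMa was lower in TAC than in Sham in endothelial-like and fibroblast-like cells. In endothelial-like cells its ratio of -0.37 (-0.96 to 0.24) had an interval that held 0. In endothelial-like cells 5 members had at least 100 UMIs. For TAC over Sham 4 of them passed 1.5-fold upward (10.3% of 9781 genes did) and 0 downward (7.59%), and for TAC+ART over TAC 3 did upward (4.80%) and 0 downward (4.99%). In fibroblast-like cells 4 of 5 passed upward (16.7%) and 1, H2-DMa, downward (10.6%), then 2 upward (6.61%) and 0 downward (7.19%). In all cardiomyocyte-like cells 3 of 3 passed upward in TAC over Sham (29.0%), and 0 of 4 passed in TAC+ART over TAC, where 7.61% of genes passed upward and 15.3% downward. Cd74 had 32.4, 63.8 and 88.9 CPM in endothelial-like cells, 30.9, 48.7 and 58.3 in fibroblast-like cells, and 9.26, 52.2 and 59.4 in the cardiomyocyte-like cells of clusters 9 and 14. With the reference of clusters 9 and 14 subtracted, the endothelial-like TAC over Sham ratio of Cd74 turned from 0.97 to -1.002.

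B cell-like cells differed from macrophage-like cells in which partners they held. H2-Ob and H2-Oa form DO, the inhibitor of DM in B cells. H2-Ob had 273, 347 and 199 CPM in B cell-like cells of Sham, TAC and TAC+ART and 3.01, 2.40 and 3.22 CPM in macrophage-like cells, from 4, 15 and 14 UMIs. H2-Oa was hardly detected in B cell-like cells, at 0, 19.6 and 44.9 CPM from 0, 3 and 7 UMIs. H2-DMb2, the second DM beta gene, had 87.2, 177 and 148 CPM in B cell-like cells and 3.01, 1.76 and 2.07 CPM in macrophage-like cells. H2-DMb1 itself had 174, 124 and 83.4 CPM in B cell-like cells, with overlapping intervals. B cell-like cells had a TAC+ART over TAC ratio of the 7 genes of -0.25 (-0.42 to -0.07), from 49 and 44 cells, where macrophage-like cells had 0.41; the difference was not tested.

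The machinery around class II was described by 2 lists. Of 14 partner genes in the matrices, 10 had at least 100 UMIs in macrophage-like cells for TAC over Sham: 7 were higher and 3 lower, 4 and 1 by 1.5-fold. Over all genes 12.1% were higher and 9.49% lower by that much. The median of the list was 0.33 beside 0.00 for all genes. The cathepsin Ctsl (36.1 to 81.3 CPM, Sham to TAC) and Mif, a ligand of CD74 (12.0 to 26.9 CPM), had the highest ratios. The costimulators Cd40 (39.1 to 20.2 CPM) and Cd80 (71.5 to 51.9 CPM) had the lowest. In TAC+ART, 3 were higher than in TAC and 7 lower, with a median of -0.12, close to the -0.07 of all genes. Cathepsin S (Ctss), which cuts the invariant chain, had 156 CPM in Sham, 305 with TAC and 200 with TAC+ART, with a TAC+ART over TAC ratio of -0.61 (-0.73 to -0.49). Cd44, which pairs with CD74 at the surface, had 166, 204 and 134 CPM. The costimulators Cd40 and Cd86 were the highest, at 0.88 (0.54 to 1.23) and 0.55 (0.46 to 0.64). Marchf1, the ligase that removes class II from the surface, had 419, 502 and 649 CPM and was named after its value was seen.

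Regulators of class II showed no common direction. Of 17 listed genes in the matrices, 13 were measured for TAC over Sham, 9 higher and 4 lower with a median of 0.14 (all genes 0.00). In the TAC+ART over TAC ratio 14 were measured, 6 higher and 8 lower with a median of -0.05 (all genes -0.07). Ifngr1 and Ifngr2, the chains of the interferon gamma receptor, had TAC over Sham ratios of 0.67 (0.43 to 0.92) and 0.69 (0.45 to 0.95). Ifngr2 had 112 CPM in Sham, 182 with TAC and 109 with TAC+ART. Irf4 and Irf8, factors of antigen-presenting cells, went the other way: Irf4 had 40.7, 23.4 and 41.6 CPM and Irf8 102, 76.5 and 103 CPM. The subunit gene Nfyb of NF-Y had a TAC+ART over TAC ratio of -0.43 (-0.93 to 0.03).

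Class I presentation genes, which serve CD8+ T cells, were measured beside them. For TAC over Sham 9 of 13 were higher and 4 lower, with a median of 0.19 (all genes 0.00), led by Psmb10 (0.80) and B2m (0.50, 0.33 to 0.68), with H2-Q4 (-0.51) and Tap2 (-0.47) lowest. For TAC+ART over TAC 12 of 14 were higher with a median of 0.29 (all genes -0.07), and 3 passed 1.5-fold upward, where 5.52% of all genes did. Tap1, the peptide transporter, had 21.1, 16.8 and 30.3 CPM, and H2-Q7 10.5, 9.92 and 18.2 CPM. H2-D1, a classical class I heavy chain, had a ratio of -0.14 (-0.26 to -0.03), and Psmb10 one of -0.24 (-0.65 to 0.15).

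Markers of macrophage origin also differed between libraries. Of 11 resident genes, 8 were lower in TAC than in Sham (median -0.39, all genes 0.00), and 10 were higher in TAC+ART than in TAC (median 0.44, all genes -0.07). Timd4 had 199, 72.5 and 175 CPM and Igf1 502, 281 and 468 CPM, while Lyve1 (163, 251 and 222 CPM) and Selenop (367, 475 and 815 CPM) were higher in TAC than in Sham. Cbr2, another resident gene, had 191, 135 and 154 CPM. Of 6 recruited genes with enough UMIs, 5 were higher in TAC than in Sham (median 0.65), among them Trem2 (20.3 to 48.3 CPM) and Cx3cr1 (0.53), with Fabp5 at -0.06. For TAC+ART over TAC 2 were higher and 4 lower (median -0.26), with Fabp5 at 0.74, Ccr2 at 0.08 (-0.12 to 0.28) and Lgals3 at -0.59. Il1b had 20.3 CPM in Sham, 39.5 with TAC and 2.30 with TAC+ART. Class II levels and the inflammatory gene Il1b were thus both higher in TAC than in Sham, but in TAC+ART Il1b was at its lowest and the class II sum at its highest.

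Within each library, macrophage-like cells with 3 or more class II UMIs per 1000 were set against those with none. There were 42 and 174 such cells in Sham, 223 and 723 with TAC, and 229 and 387 with TAC+ART. A UMI of Ccr2 was found in 19.0% of the first and 4.02% of the second group in Sham, 41.7% and 3.04% with TAC, and 26.6% and 3.88% with TAC+ART. Cluster 8 held 19.0%, 51.6% and 28.4% of the first group and 1.15%, 8.58% and 3.88% of the second. Median depths were 3836.5 against 4629 UMIs in Sham, 4192 against 5158 with TAC and 3990 against 4849 with TAC+ART.

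Of 4190 genes ranked, 940 were higher in the class II-rich cells of all 3 libraries and 897 lower. The 10 highest by their smallest ratio were Ccr2, Grk3, Rtn1, Plxdc2, Stap1, Tle1, Cx3cr1, Cadm1, Tgfbr1 and Col14a1. Ccr2 had log2 ratios of 3.20 in Sham, 5.51 with TAC and 4.18 with TAC+ART. Grk3, a kinase that desensitises G protein-coupled receptors, had 3.07, 2.23 and 2.53, and Cx3cr1, the fractalkine receptor, 2.38, 1.48 and 2.10. Tgfbr1, a receptor chain for TGF-beta, had 2.18, 1.54 and 1.38. The 5 lowest were Dnm1, Tslp, Colec12, Gm15270 and Gypc. Colec12, a scavenger receptor, had -1.66, -2.81 and -1.69, and Dnm1 -2.33, -1.98 and -2.75.

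All 11 resident genes were lower in the class II-rich cells of each library, with medians of -0.69 in Sham, -1.45 with TAC and -0.94 with TAC+ART. Vsig4, a complement receptor, had -1.18, -3.41 and -2.25, and Timd4, a receptor for dying cells, -0.89, -2.68 and -1.20. Of all 4190 ranked genes, 940 were higher in the class II-rich cells of all 3 libraries and 897 lower. Of 8 ranked regulators, 5 were higher in all 3 and 0 lower in all 3. Among the 5 were Irf8 (1.39, 0.58 and 0.49) and Ifngr2 (0.22, 0.36 and 0.63). Of 6 partners, Ctss (0.91, 0.68 and 0.34) and Marchf1 (0.33, 0.32 and 0.19) were higher in all 3. Of 5 class I genes 1 was, H2-D1, with 0.14, 0.13 and 0.15, a share close to that of all ranked genes.

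Across classes and libraries, the genes whose log2(CPM + 1) followed the class II sum most closely were those of macrophages. Over 22 units of at least 50 cells from 8 classes, and among 11324 genes, Pearson's r was 0.971 for Csf1r, 0.966 for Pf4, 0.965 for C1qa, 0.961 for Wfdc17 and 0.958 for Cybb. Csf1r and C1qa are markers of the macrophage gate, and the units share 3 libraries, so r describes where the genes are found and was not tested. These genes did not all follow the library order within macrophage-like cells: C1qa had 361, 752 and 626 CPM and Cybb 218, 174 and 359 CPM, against 795, 1190 and 1579 for the class II sum.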

How the data were processed

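The authors deposited matrices of raw counts, with 1 value per gene and barcode and no normalization. Cell Ranger, Seurat and mm10 are named in the submitters' processing notes, with versions, annotation and use of strand not given in the sources used here. Barcodes had to hold 500 UMIs, 300 genes and no more than 10% mitochondrial UMIs. A reimplementation of Scrublet's score was run in each library, and the top 0.8% per 1000 barcodes was removed (113 in Sham, 440 in TAC, 376 in TAC+ART). This left 3637, 6972 and 6480 cells.

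For each class, marker log values were z-scored over cells, capped at 4 and averaged. A cell took the class with the highest score among those with 3 or more detected markers, if it was at least 0.5 and at least 0.25 above any unrelated class. Macrophages, monocytes and dendritic cells counted as related. So did endothelial, endocardial and lymphatic endothelial cells, and pericytes and smooth muscle cells. No margin was asked between related classes. This rule was set after seeing the data. Clusters came from Leiden at resolution 1 on 3000 variable genes without the 7 members and 30 components (Scanpy 1.11.5, leidenalg 0.10.2). A cluster is named where at least 3 markers of a class stood out, and cluster 8 is given by number.

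UMIs were summed per class and library. Log2 ratios had 0.5 counts added, and carry exact conditional binomial intervals; sums carry Poisson intervals and shares Clopper-Pearson intervals, all at 95%. PCR and capture errors are not covered. Genes with at least 100 UMIs in a pair of libraries were counted as past the fold at 1.5. On simulated counts for the 8865 macrophage-like genes of TAC over Sham, 96% of 2-fold changes passed it, and 2.48% of unchanged genes did. For the 9924 of TAC+ART over TAC the values were 96% and 0.637%. The simulated counts were Poisson draws from the pooled profile of the 2 libraries, without differences between hearts, preparations or cells. These values thus cover counting error only and are not error rates for the real libraries.

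Named genes were the 7 members, up to 2 highest and 2 lowest per list and comparison, the 5 genes most like the sum, and the 10 highest and 5 lowest of the class II-rich cells. The members, lists and tests were chosen with earlier results of these data known. SciPy 1.17.1, NumPy 2.4.6 and pandas 2.3.3 were used.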

Additional observations from a re-analysis of the deposited data

Results flagged for a closer look

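Some members had counting intervals on opposite sides of 0 in different classes; none of these differences was tested, and each rests on 1 library per group. For TAC over Sham, Ciita had log2 ratios of 1.73 in B cell-like cells (0.76 to 3.00, 52 and 9 UMIs) and 0.47 in macrophage-like cells, but -1.49 in endothelial-like cells (-2.34 to -0.68, 23 and 32 UMIs). The endothelial-like Ciita level was 10.1 CPM in Sham and 3.57 in TAC, beside 5.36 and 7.92 in the cardiomyocyte-like cells of clusters 9 and 14. For TAC+ART over TAC, Ciita had 0.19 in macrophage-like cells and -0.77 in B cell-like cells (-1.47 to -0.11). Cd74 in the same comparison had 0.29 in macrophage-like, 0.48 in endothelial-like, 0.53 in endocardial-like and 0.26 in fibroblast-like cells, and -0.32 in B cell-like cells (-0.58 to -0.06).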

How the results depend on the processing

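No paired analysis was possible because each group had 1 library, and leaving out a replicate could not be run for the same reason. The 2 summed ratios in macrophage-like cells stayed above 0 under every alternative run. TAC over Sham was 0.58, and it was 0.40 with cells thinned to 1000 UMIs, 0.30 with the level of all cardiomyocyte-like cells subtracted, 0.46 with that of clusters 9 and 14 subtracted, 0.19 outside cluster 8 and 0.20 without Ccr2. TAC+ART over TAC was 0.41, and it was 0.47 with median-of-ratios scaling, 0.54 and 0.46 with those 2 subtractions, 0.77 outside cluster 8 and 0.70 without Ccr2. The subtraction of clusters 9 and 14 and both subsets were chosen after seeing the data. For single members, a subtraction that left a level at or below 0 in either library gave no ratio and was not counted. In TAC, for example, endothelial-like H2-Aa had 32.0 CPM, against 52.4 in all cardiomyocyte-like cells. Among the 306 values of single members that could be computed under alternatives, 302 kept their sign. Of these, 251 stayed within the counting interval of the reported value and 51 moved out of it. The other 4 were H2-Eb1 in macrophage-like cells outside cluster 8 (-0.014), Ciita in macrophage-like cells thinned to 1000 UMIs (-0.25), and endothelial-like H2-Aa (-3.74) and Cd74 (-1.002) with the level of clusters 9 and 14 subtracted, all for TAC over Sham; the cause was not tested. Genes past 1.5-fold in macrophage-like cells numbered 1083 higher and 847 lower for TAC over Sham, and 549 and 558 for TAC+ART over TAC. With a minimum of 20 UMIs they were 1907, 2225, 1437 and 1292, and at 2-fold they were 437, 280, 142 and 124. The share of macrophage-like cells with a class II UMI was 38.1%, 41.3% and 57.6% at 1000 UMIs, 48.1%, 52.9% and 69.5% at 2000 UMIs, and 67.6%, 72.0% and 84.1% unthinned, in the same order of libraries. Depth limits H2-DMa and H2-DMb1 most, with 43 and 52 UMIs in Sham macrophage-like cells. Dendritic-like cells, 5 to 12 per library, were too few to compare.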
